A study of Homo sapiens with 12 samples.

Results

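The genes described here encode the eukaryotic translation initiation factors. They are all protein-coding genes of the expression table whose symbol begins with EIF, with the EIF2AK kinases left out, 52 of 20308 genes. Total RNA was measured in C4-2, a human prostate cancer line that was derived from LNCaP and grows without androgen. The cells either overexpressed ALKBH5 (oeALKBH5), an enzyme that removes N6-methyladenosine (m6A) from RNA, or carried an empty vector (NC), and no other agent is named for either group. Each group had 3 input libraries, which were made without the m6A pull-down. Whether the libraries of a group stem from separate cultures is not given in the labels, and p-values here reflect no more than their scatter, which could be technical. The m6A peak lists of the same cells were not used here, since they give no gene names and no annotation of their build was at hand. Values are FPKM, that is, fragments scaled by the length of the transcript and by the mapped total. In bulk RNA, a change in every cell and a change in some of the cells cannot be told apart.

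Initiation factors bring the first methionyl-tRNA and the small ribosomal subunit to an mRNA, find the start codon and join the large subunit. eIF2 carries the initiator tRNA and is recharged with GTP by eIF2B, eIF3 is the scaffold on the small subunit, and the eIF4F complex binds the mRNA cap and unwinds the leader. Supply of eIF2 and access to the cap-binding protein eIF4E are the steps that stress and growth signals are known to control, and mTOR signalling sets that access in many prostate cancers. eIF3 has also been described as a reader of m6A in mRNA leaders.

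The FPKM of all genes summed to between 511333 and 512996 in oeALKBH5 libraries and between 514140 and 524905 in NC libraries. Absolute depth is unknown. From the commonest ratio among genes under 1 FPKM, depth relative to NC replicate 1 was 0.783 to 1.07 in oeALKBH5 libraries and up to 1.13 in NC libraries. ALKBH5 was at 80.3, 74.3 and 72.5 FPKM in oeALKBH5 libraries, against 64.9, 61.1 and 58.2 FPKM in NC libraries. The groups did not overlap, but the difference did not pass the test over all genes (log2 fold change 0.30, with an SE of 0.10 and a limma adjusted p of 0.114). Of 10 luminal prostate markers, 1 rose (KRT8, 223 ± 13.2 FPKM in oeALKBH5 and 137 ± 8.44 FPKM in NC libraries), and the others, not called, include KLK3 at 943 ± 52.8 FPKM in oeALKBH5 and 1004 ± 14.8 FPKM in NC libraries (SD, n = 3 each). Of 9 markers of other cell types in the table, none of the 4 tested was called by limma, and 1, CD3D, had an unadjusted p under 0.05. CD3D averaged 1.83 FPKM in oeALKBH5 and 0.350 FPKM in NC libraries. It passed the filter, a mean of 0.5 FPKM, only through the oeALKBH5 libraries, so that p carries no weight. The leukocyte markers were low. CD3D and PTPRC were higher in oeALKBH5 without overlap. CD68, not tested, was at 1.10 and 0.424 FPKM in oeALKBH5 replicates 1 and 3 and at 1.48 FPKM in NC replicate 1. Its other values lay under 1e-06 FPKM, taken as failed estimates, so no direction is given for CD68. The neuroendocrine marker SYP was lower in oeALKBH5 without overlap, at 0.463, 0.188 and 0.355 FPKM, against 0.958, 0.781 and 0.738 FPKM in NC libraries. SYP averaged 0.335 FPKM in oeALKBH5 and 0.826 FPKM in NC libraries, so it passed the filter only through the NC libraries. Of all tested genes, 15.1% were higher and 13% lower in oeALKBH5 without overlap. CD3D was at 1.27, 1.70 and 2.53 FPKM in oeALKBH5 libraries, against 0.524, 0 and 0.527 FPKM in NC libraries. PTPRC, which did not pass the filter, was at 0.213, 0.290 and 0.456 FPKM in oeALKBH5 libraries, against 0, 0.0668 and 0 FPKM in NC libraries. The summed level of the 9 was 6.08 to 29.8 FPKM in oeALKBH5 and 5.94 to 16.9 FPKM in NC libraries, with COL1A1 at 2.17, 27.6 and 8.08 FPKM in oeALKBH5 libraries, against 12.2, 4.79 and 3.43 FPKM in NC libraries, and CHGA was listed at 0 in every library. What part such cells have in the results was not tested.

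Initiation factor mRNAs moved in both directions in oeALKBH5 cells, and by small amounts. The mRNAs of EIF3H, EIF4A2, EIF4B, EIF2S3 and EIF1 rose, those of EIF3B and EIF6 fell, and the other 44 of 51 tested members stayed short of the threshold. The test was limma on log2(FPKM + 1) over all 12757 genes that averaged 0.5 FPKM or more, with Benjamini-Hochberg adjustment and a threshold of 0.05. A log2 fold change is the oeALKBH5 mean minus the NC mean on that scale. The member left untested was EIF1AY, which was listed at 0 in 5 libraries and at 0.287 FPKM in NC replicate 3. The 7 calls are 13.7% of the tested members, where 5.45% of all tested genes were called. By direction, 9.8% of members rose against 3.02% of all genes, and 3.92% fell against 2.43%. High genes are called more often: among genes averaging 50 FPKM or more the share was 15.5% (6.19% higher and 9.33% lower in oeALKBH5), and among the 31 members at that level it was 22.6%, 5 higher and 2 lower. The groups did not overlap in 23 members (45.1%, against 28.1% of all tested genes). They were 10 higher (15.1% of all genes) and 13 lower in oeALKBH5 (13% of all genes). At 50 FPKM or more, the share was 58.1% of members and 43.7% of genes. An unadjusted p under 0.05 was reached by 21.9% of all tested genes, by 39.2% of those averaging 50 FPKM or more, and by 21 of the 51 members (41.2%). The 21 include EIF4E1B, which passed the filter on low values only through the oeALKBH5 libraries, so its p carries no weight. The median log2 fold change of the tested members was -0.03, beside 0.02 for all tested genes.

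**Figure D1:**
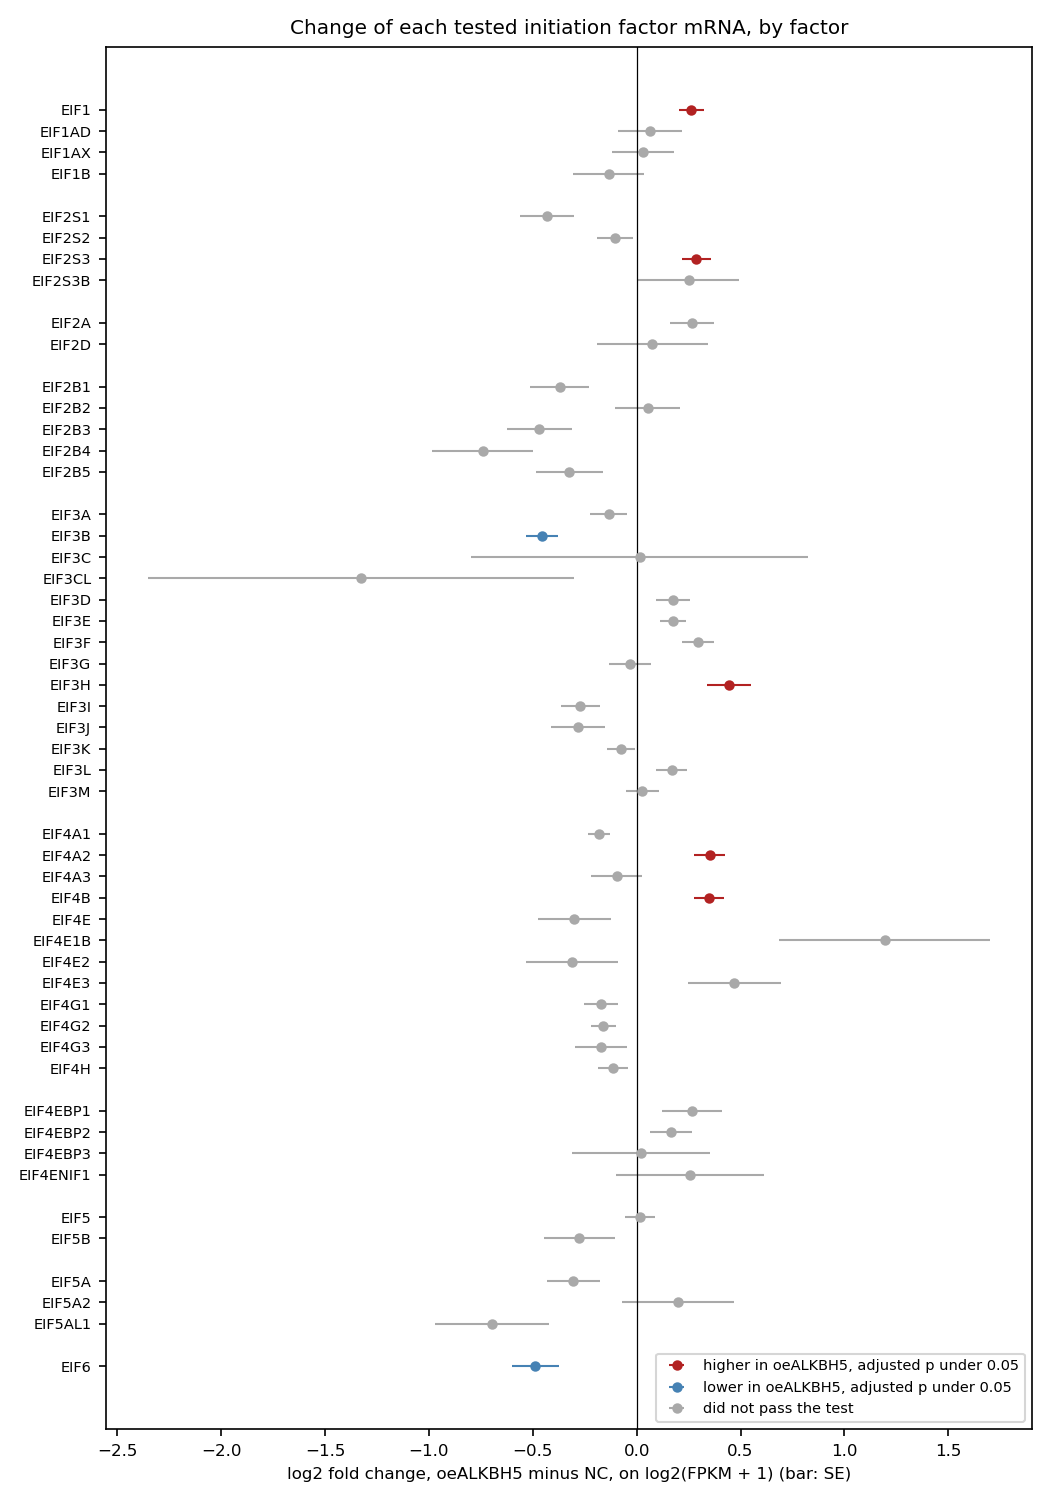
Log2 fold change (oeALKBH5 minus NC, on log2(FPKM + 1), x axis) with its SE for each of the 51 tested initiation factor genes, grouped by factor down the page. The 5 red points (EIF1, EIF2S3, EIF3H, EIF4A2, EIF4B) and 2 blue points (EIF3B, EIF6) passed the test, and the 44 grey points did not. The grey points include EIF4E1B, which was listed at 0 in all NC libraries.

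EIF3B was the member with the smallest p. With single libraries left out, it lost its call only without NC replicate 2 (adjusted p = 0.0519). EIF4A2 kept its call without oeALKBH5 replicate 1 and without NC replicate 1 and lost it in the other 4 such fits (adjusted p up to 0.124, without NC replicate 3). EIF4B kept its call only without oeALKBH5 replicate 1 (otherwise up to 0.12, without NC replicate 3), EIF1 only without NC replicate 2 (otherwise up to 0.156, without NC replicate 3) and EIF3H only without NC replicate 1 (otherwise up to 0.166, without NC replicate 3). EIF2S3 and EIF6 lost theirs whichever library was omitted (adjusted p from 0.0827 to 0.157 and from 0.0596 to 0.134). The direction of all 7 held in every one of these fits. Without the intensity trend of limma none of the 7 passed (adjusted p from 0.101 for EIF3B to 0.27 for EIF1), and without a minimum level, over 15776 genes, only EIF3B and EIF2S3 did (0.0232 and 0.0425). Among other settings, EIF6 lost its call with libraries rescaled to equal sums (0.0519) and under quantile normalization (0.062), and EIF3H and EIF2S3 lost theirs with a pseudocount of 0.1 FPKM (0.0506 each) and under median ratio scaling (0.0576 and 0.0528).

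**Figure D2:**
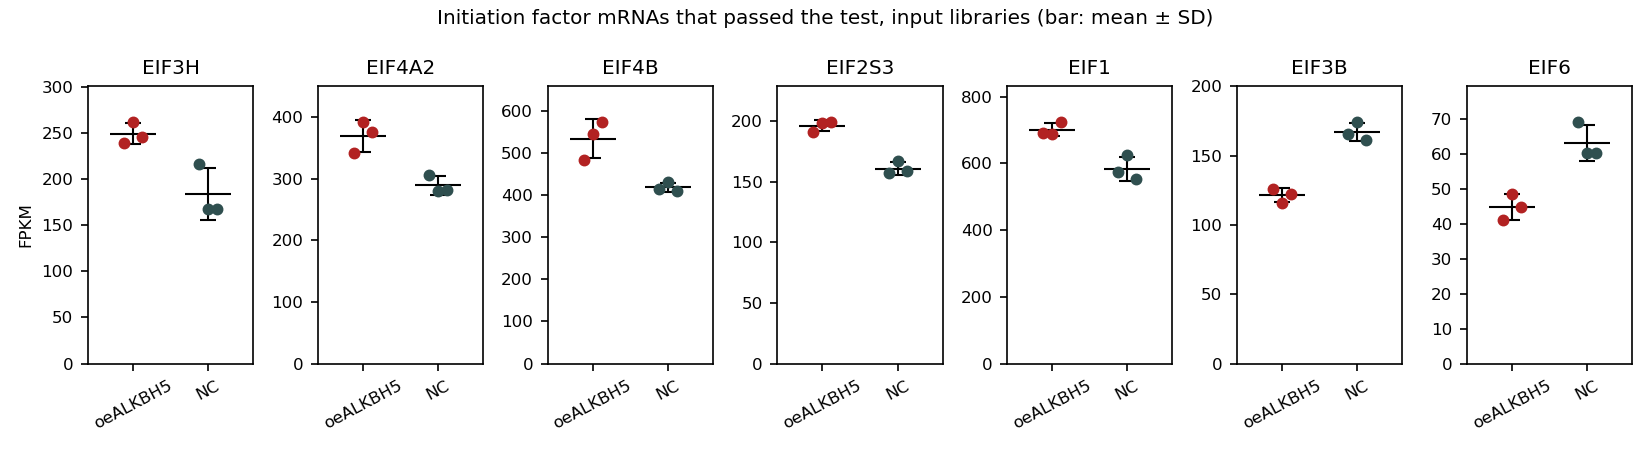
FPKM (y axis, from 0) of the 7 initiation factor genes that passed the test, with the oeALKBH5 libraries left of the NC libraries in each panel. Points are libraries, and the bar is the mean ± SD. In each panel the 3 oeALKBH5 points lie all above or all below the 3 NC points.

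Among the factors that select the start codon, EIF1 rose. This small protein keeps the scanning ribosome open until a start codon is met. EIF1 was at 691, 687 and 724 FPKM in oeALKBH5 libraries, against 575, 624 and 553 FPKM in NC libraries, so the lowest oeALKBH5 library stood above the highest NC library (log2 fold change 0.26, with an SE of 0.06 and a limma adjusted p of 0.0427). The paralog EIF1B did not pass (48.4 ± 11.9 FPKM in oeALKBH5 and 52.3 ± 3.50 FPKM in NC libraries, SD, n = 3 each). EIF1AX, the partner of EIF1 on the small subunit, was at 36.8 ± 3.25 FPKM in oeALKBH5 and 36.3 ± 6.60 FPKM in NC libraries, and EIF1AD, an eIF1A-like protein, at 26.9 ± 4.76 FPKM in oeALKBH5 and 25.4 ± 0.438 FPKM in NC libraries (SD, n = 3 each). Neither passed the test, and the groups overlapped for all 3 genes.

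Of the 4 eIF2 genes, 1 rose and none fell. EIF2S3 encodes the gamma subunit, which binds GTP and the initiator tRNA, and it was at 191, 199 and 199 FPKM in oeALKBH5 libraries, against 157, 167 and 159 FPKM in NC libraries (log2 fold change 0.29, with an SE of 0.07 and a limma adjusted p of 0.0491). EIF2S1 encodes the alpha subunit, the one phosphorylated by stress kinases, and it was at 93.1, 69.4 and 76.4 FPKM in oeALKBH5 libraries, against 113, 114 and 95.0 FPKM in NC libraries. All 3 oeALKBH5 libraries were below all 3 NC libraries for EIF2S1, but the difference did not pass the test (log2 fold change -0.43, with an SE of 0.13 and a limma adjusted p of 0.0922). The beta subunit EIF2S2 was at 81.0 ± 3.26 FPKM in oeALKBH5 and 87.2 ± 4.03 FPKM in NC libraries (SD, n = 3 each) and did not pass either. EIF2S3B, a near-identical copy of EIF2S3, was at 13.8 ± 2.36 FPKM in oeALKBH5 and 11.7 ± 3.59 FPKM in NC libraries (SD, n = 3 each), and the split of reads between these copies is uncertain. When their values were added in each library, an alternative chosen after seeing the data, the log2 fold change was 0.28 and the adjusted p 0.0581. Of the factors that can deliver initiator tRNA without eIF2, EIF2A was at 126 ± 13.8 FPKM in oeALKBH5 and 104 ± 7.72 FPKM in NC libraries and EIF2D at 19.6 ± 7.11 FPKM in oeALKBH5 and 17.7 ± 2.47 FPKM in NC libraries (SD, n = 3 each). The groups overlapped for both.

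No subunit of eIF2B, the exchange factor that recharges eIF2, was called by limma, and 3 of the 5 had an unadjusted p under 0.05 (21.9% of all tested genes). The log2 fold changes were negative for 4 of the 5. EIF2B4, the delta subunit, was at 16.1, 20.4 and 15.8 FPKM in oeALKBH5 libraries, against 26.6, 43.9 and 22.2 FPKM in NC libraries (log2 fold change -0.74, with an SE of 0.24 and a limma adjusted p of 0.117). NC replicate 2 was the highest library. Without it the log2 fold change of EIF2B4 was -0.46. The regulatory subunit EIF2B1 was at 31.8, 24.8 and 26.8 FPKM in oeALKBH5 libraries, against 36.6, 39.4 and 32.4 FPKM in NC libraries, with no overlap of the groups (log2 fold change -0.37, with an SE of 0.14 and a limma adjusted p of 0.166). EIF2B3, the gamma subunit, also had groups that did not overlap (21.2, 19.9 and 16.2 FPKM in oeALKBH5 and 26.2, 30.0 and 24.1 FPKM in NC libraries, adjusted p = 0.127). In the catalytic subunit EIF2B5 the groups overlapped (39.3 ± 4.74 FPKM in oeALKBH5 and 49.8 ± 9.27 FPKM in NC libraries, SD, n = 3 each). EIF2B2, the beta subunit, was the exception, at 26.4 ± 3.57 FPKM in oeALKBH5 and 25.4 ± 3.27 FPKM in NC libraries (SD, n = 3 each). The 5 genes summed to 129 to 131 FPKM in oeALKBH5 libraries and to 154 to 198 FPKM in NC libraries. The gene spans of EIF2B1 and EIF2S1 overlap those of DDX55 and GPHN in RefSeq, and no source used here says that strand was used in counting, so their values may hold reads of those genes.

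The eIF3 complex was split in direction. Of 14 eIF3 genes, 1 rose, 1 fell and 12 stayed short of the threshold. Of the log2 fold changes, 7 were above 0 and 7 below, with the signs of EIF3C and EIF3G turning under quantile normalization, and the median was -0.01. Without EIF3C and EIF3CL, whose values are uncertain, 6 of 12 were above 0 and 6 below, with a median of -0.002. EIF3B, a core scaffold subunit that holds the complex to the small ribosomal subunit, was at 126, 116 and 122 FPKM in oeALKBH5 libraries, against 166, 174 and 161 FPKM in NC libraries (log2 fold change -0.46, with an SE of 0.08 and a limma adjusted p of 0.0128). EIF3H, a subunit of the outer lobe, was at 239.6, 262 and 246 FPKM in oeALKBH5 libraries, against 217, 168 and 168 FPKM in NC libraries (log2 fold change 0.44, with an SE of 0.11 and a limma adjusted p of 0.0484). NC replicate 1 stood above the other NC libraries for EIF3H and still below every oeALKBH5 library. EIF3F, the partner of EIF3H in that lobe, was at 169.9, 169 and 163 FPKM in oeALKBH5 libraries, against 134, 146 and 128 FPKM in NC libraries. Its groups did not overlap, but its adjusted p was 0.0685, and it passed only under quantile normalization (0.0409). EIF3E was at 367, 392 and 379 FPKM in oeALKBH5 libraries, against 344, 320.0 and 346 FPKM in NC libraries, and EIF3D, the subunit that can bind the cap itself, was at 179, 186 and 194 FPKM in oeALKBH5 libraries, against 177, 166 and 152 FPKM in NC libraries. In both the oeALKBH5 libraries were the higher ones without overlap, and neither passed the test (adjusted p = 0.148 and 0.248).

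On the side of EIF3B stood EIF3I, its direct partner, at 188, 153 and 187 FPKM in oeALKBH5 libraries, against 219.5, 207 and 208 FPKM in NC libraries, and EIF3A, the largest scaffold subunit, at 75.7, 69.6 and 74.3 FPKM in oeALKBH5 libraries, against 84.0, 80.6 and 76.9 FPKM in NC libraries. The oeALKBH5 libraries were the lower ones without overlap in both, and neither passed the test (adjusted p = 0.133 and 0.417). For EIF3J, the loosely bound subunit, the groups overlapped (99.0 ± 16.8 FPKM in oeALKBH5 and 119 ± 8.39 FPKM in NC libraries, SD, n = 3 each). EIF3G, EIF3K, EIF3L and EIF3M had overlapping groups and log2 fold changes of -0.03 (0.0044 under quantile normalization), -0.08, 0.17 and 0.03. The summed level of the 14 genes was 2508 to 2624 FPKM in oeALKBH5 and 2488 to 2542 FPKM in NC libraries, so the groups overlapped. Apart from EIF3C and EIF3CL, the mean levels of the subunits ran from 75 FPKM for EIF3G to 372 FPKM for EIF3L over the 6 libraries.

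EIF3C stood apart from its complex, with low and scattered values. EIF3C and EIF3CL are near-identical copies between which reads can be split, and EIF3C was listed at 2.20, 7.40 and 2.01 FPKM in oeALKBH5 libraries, against 0.504, 2.00 and 16.4 FPKM in NC libraries. EIF3CL was listed at 0.221, 0.752 and 0.142 FPKM in oeALKBH5 libraries, against 0.236, 24.2 and 0.236 FPKM in NC libraries. The high value lay in EIF3C in NC replicate 3 and in EIF3CL in NC replicate 2. Added together they gave 2.42, 8.15 and 2.16 FPKM in oeALKBH5 and 0.74, 26.3 and 16.6 FPKM in NC libraries, with NC replicate 1 the lowest of all. No direction is given for this subunit. The gene span of EIF3B overlaps that of SNX8 in RefSeq, so the values of EIF3B may also hold reads of that gene.

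**Figure D3:**
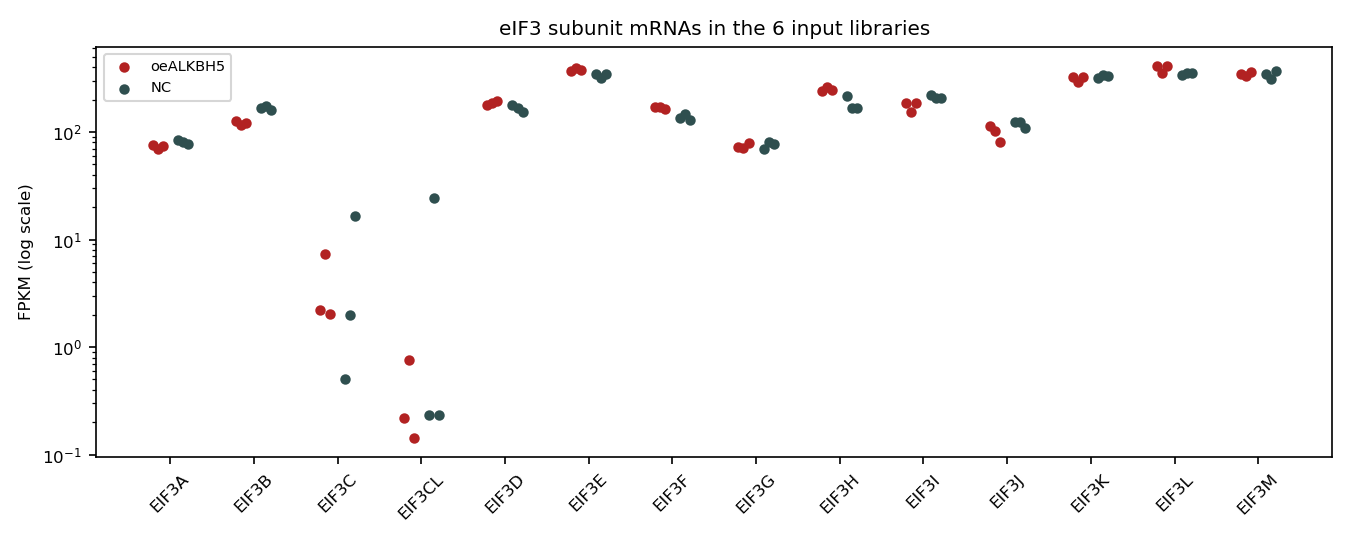
FPKM on a log scale (y axis) of the 14 eIF3 genes, with oeALKBH5 libraries (red) left of NC libraries (dark) for each gene. The 12 single-copy subunits lie between 69.1 and 414 FPKM in every library, whereas EIF3C and EIF3CL scatter from 0.142 to 24.2 FPKM.

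In the cap-binding arm, the helicase and its cofactor gave the calls. Of 12 eIF4 genes, 2 rose and none fell (median log2 fold change -0.14). EIF4A2 encodes one of the eIF4A helicases and was at 341, 392 and 376 FPKM in oeALKBH5 libraries, against 307, 279.7 and 282 FPKM in NC libraries (log2 fold change 0.35, with an SE of 0.07 and a limma adjusted p of 0.0317). EIF4B, which stimulates that helicase, was at 483, 544 and 572 FPKM in oeALKBH5 libraries, against 413, 429.5 and 409.6 FPKM in NC libraries (log2 fold change 0.35, with an SE of 0.07 and a limma adjusted p of 0.0297). The span of EIF4A2 holds several small nucleolar RNA genes in RefSeq, and that of EIF4A1 likewise, so reads of these could be counted with them. The other cytosolic helicase gene, EIF4A1, the more abundant by FPKM, was at 647, 638 and 657 FPKM in oeALKBH5 libraries, against 719, 771 and 717 FPKM in NC libraries. All oeALKBH5 libraries were below all NC libraries for EIF4A1, and it did not pass the test (log2 fold change -0.18, with an SE of 0.05 and a limma adjusted p of 0.0835). Under quantile normalization the log2 fold change of EIF4A1 was -0.05, with an adjusted p of 0.598. EIF4A3, the helicase of the exon junction complex, was at 56.0 ± 5.60 FPKM in oeALKBH5 and 60.0 ± 6.47 FPKM in NC libraries, and EIF4H, an EIF4B relative, at 161 ± 7.13 FPKM in oeALKBH5 and 174 ± 2.36 FPKM in NC libraries (SD, n = 3 each).

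The helicase genes were also compared within each library. The ratio of EIF4A2 to EIF4A1 was 0.527, 0.614 and 0.573 in oeALKBH5 libraries, against 0.427, 0.363 and 0.393 in NC libraries. On the log2 scale, with 1 FPKM added to each gene, the difference was 0.54 with an exact two-sided permutation p of 0.1, the smallest that 3 libraries against 3 can give (0.333 adjusted over the 10 ratios compared). A single scaling factor for a library leaves such a ratio unchanged before the 1 FPKM is added, and quantile normalization, which can shift genes apart, gave 0.50. The ratio shows unequal change, not which gene moved.

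EIF4E, its homologs and the scaffolds that join it to the ribosome were not called by limma. Leaving out EIF4E1B, 1 of these 6 genes, EIF4G2, had an unadjusted p under 0.05 (21.9% of all tested genes). EIF4E, the cap-binding protein, was at 35.7, 56.7 and 39.0 FPKM in oeALKBH5 libraries, against 47.1, 58.4 and 54.3 FPKM in NC libraries, with overlap (log2 fold change -0.30, with an SE of 0.18 and a limma adjusted p of 0.359). That value was -0.17 without oeALKBH5 replicate 1 and -0.50 without oeALKBH5 replicate 2. Its homolog EIF4E2 scattered more in oeALKBH5 libraries (57.0, 33.4 and 60.1 FPKM, against 53.8, 73.7 and 56.0 FPKM in NC). EIF4E3 was at 9.48, 8.24 and 6.02 FPKM in oeALKBH5 libraries, against 5.41, 5.24 and 5.39 FPKM in NC libraries, without overlap (adjusted p = 0.259). EIF4E1B was listed at 0, 2.55 and 2.37 FPKM in oeALKBH5 libraries and at 0 in all 3 NC libraries. It passed the filter on low values only through the oeALKBH5 libraries. No p-value is given for it, though it is counted among the 51 tested members. The scaffolds EIF4G1, EIF4G2 and EIF4G3 had log2 fold changes of -0.17, -0.16 and -0.17, and that of EIF4G3 was -0.07 without oeALKBH5 replicate 3 and -0.26 without oeALKBH5 replicate 2. EIF4G1 was at -0.11 without NC replicate 2. For EIF4G1 and for EIF4G2, which lacks the part that binds eIF4E, the oeALKBH5 libraries were below the NC libraries without overlap (adjusted p = 0.261 and 0.163).

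None of the 4 genes of eIF4E repressors and transporters was called by limma, and none had an unadjusted p under 0.05. These are the repressors EIF4EBP1, EIF4EBP2 and EIF4EBP3, which mTOR controls by phosphorylation, and EIF4ENIF1, which carries eIF4E into the nucleus. EIF4EBP1 was at 59.6, 72.6 and 78.7 FPKM in oeALKBH5 libraries, against 64.8, 61.0 and 49.0 FPKM in NC libraries, with overlap (adjusted p = 0.317). EIF4EBP2 was at 56.8, 57.0 and 50.3 FPKM in oeALKBH5 libraries, against 48.9, 49.1 and 47.9 FPKM in NC libraries, without overlap (adjusted p = 0.386). EIF4EBP3, which shares a readthrough transcript with ANKHD1, was at 15 ± 7.54 FPKM in oeALKBH5 and 13.8 ± 2.70 FPKM in NC libraries, and EIF4ENIF1 at 12.7 ± 1.98 FPKM in oeALKBH5 and 11.5 ± 6.42 FPKM in NC libraries (SD, n = 3 each). Set against their target within a library, the ratio of EIF4EBP1 to EIF4E was 1.67, 1.28 and 2.02 in oeALKBH5 libraries, against 1.38, 1.04 and 0.902 in NC libraries (exact permutation p = 0.2, adjusted 0.333). That of EIF4EBP2 to EIF4E was 1.59, 1.00 and 1.29 in oeALKBH5 libraries, against 1.04, 0.840 and 0.882 in NC libraries, also with overlap and p = 0.2 by the exact permutation test. The ratio of EIF4E3 to EIF4E (0.266, 0.145 and 0.154 in oeALKBH5 libraries, against 0.115, 0.0897 and 0.0993 in NC libraries) did not overlap between groups (exact permutation p = 0.1, adjusted 0.333).

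**Figure D4:**
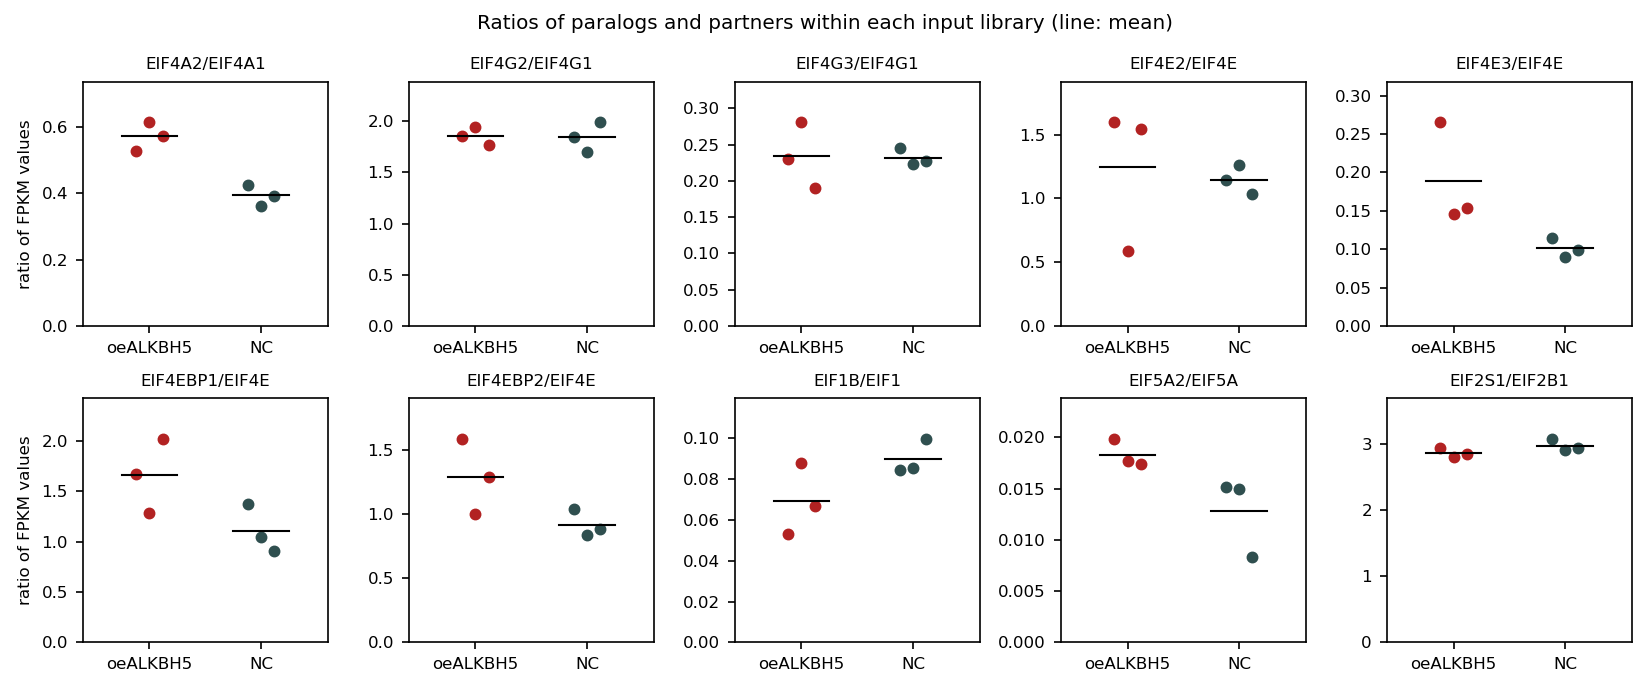
Ratio of FPKM values (y axis, from 0) of 10 pairs of paralogs or partners within each library, with oeALKBH5 left of NC. Points are libraries and the line is the mean. EIF4A2/EIF4A1, EIF4E3/EIF4E and EIF5A2/EIF5A are the panels in which the groups do not overlap.

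Of the factors that act at subunit joining and later, EIF6 fell. Its protein binds the large ribosomal subunit, keeps it from joining too early and takes part in its maturation. EIF6 was at 41.0, 48.5 and 44.7 FPKM in oeALKBH5 libraries, against 69.0, 60.3 and 60.1 FPKM in NC libraries (log2 fold change -0.49, with an SE of 0.11 and a limma adjusted p of 0.0429), so the highest oeALKBH5 library stood below the lowest NC library. EIF5, the GTPase activator of eIF2, was at 145 ± 3.55 FPKM in oeALKBH5 and 143 ± 5.54 FPKM in NC libraries, and EIF5B, the GTPase that joins the subunits, at 26.8 ± 4.05 FPKM in oeALKBH5 and 32.8 ± 5.93 FPKM in NC libraries (SD, n = 3 each). Neither had an unadjusted p under 0.05. EIF5A, which carries the amino acid hypusine and helps ribosomes through difficult stretches, was at 244, 172 and 217 FPKM in oeALKBH5 libraries, against 234, 259 and 283 FPKM in NC libraries. oeALKBH5 replicate 1 overlapped the NC libraries, and EIF5A did not pass the test (adjusted p = 0.207). Its near-identical copy EIF5AL1 was at 1.04, 1.18 and 1.34 FPKM in oeALKBH5 libraries, against 2.96, 2.04 and 2.68 FPKM in NC libraries, lower without overlap, and did not pass (adjusted p = 0.178). The split of reads between these copies is uncertain. Added in each library, an alternative chosen after seeing the data, they gave a log2 fold change of -0.31 (limma adjusted p = 0.196). EIF5A2, the paralog, was at 3.89 ± 0.909 FPKM in oeALKBH5 and 3.26 ± 0.798 FPKM in NC libraries (SD, n = 3 each). The ratio of EIF5A2 to EIF5A was 0.0199, 0.0177 and 0.0174 in oeALKBH5 libraries, against 0.0152, 0.0150 and 0.00834 in NC libraries (exact permutation p = 0.1, adjusted 0.333).

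The annotated transcript starts of the members were set beside their values. Of the 4 members with an entry that rose, EIF4B, EIF4A2 and EIF2S3 begin with a C and a run of pyrimidines, EIF1 does not, and neither do EIF3B and EIF6, which fell. mRNAs with such a start are known as terminal oligopyrimidine (TOP) mRNAs, a class that includes ribosomal protein and elongation factor mRNAs and whose translation mTOR controls through LARP1. This feature was looked up after the values were seen. The sequences printed here are from RefSeq on GRCh38.p14, matched by symbol, and show 20 bases before and 15 bases from the annotated start. They are those of the 6 called members that have an entry, of the 5 uncalled members with the smallest adjusted p in each direction (without EIF4E1B) and of EIF3K, which has the run and a negative log2 fold change. This rule was also set after the values were seen. The lines run from the highest log2 fold change to the lowest. Capitals mark the run of pyrimidines that begins with a C at the annotated start, so a line without capitals has none.
EIF4E3 (chr3:71754759-71754793, minus strand): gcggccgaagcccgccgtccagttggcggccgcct
EIF4A2 (chr3:186783557-186783591, plus strand): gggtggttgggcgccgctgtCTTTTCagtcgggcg
EIF4B (chr12:53006436-53006470, plus strand): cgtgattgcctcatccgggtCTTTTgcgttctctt
EIF3F (chr11:7987317-7987351, plus strand): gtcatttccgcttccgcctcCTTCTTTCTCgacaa
EIF2S3 (chrX:24054936-24054970, plus strand): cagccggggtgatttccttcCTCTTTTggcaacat
EIF2A (chr3:150546767-150546801, plus strand): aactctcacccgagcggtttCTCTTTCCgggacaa
EIF1 (chr17:41688865-41688899, plus strand): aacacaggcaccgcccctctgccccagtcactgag
EIF3D (chr22:36529152-36529186, minus strand): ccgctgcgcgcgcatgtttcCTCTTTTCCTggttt
EIF4EBP2 (chr10:70404125-70404159, plus strand): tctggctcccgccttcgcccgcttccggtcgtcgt
EIF3K (chr19:38619168-38619202, plus strand): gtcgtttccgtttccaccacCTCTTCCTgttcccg
EIF4A1 (chr17:7572805-7572839, plus strand): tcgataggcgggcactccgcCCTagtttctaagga
EIF3I (chr1:32222387-32222421, plus strand): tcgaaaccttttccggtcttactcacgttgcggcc
EIF2S1 (chr14:67360308-67360342, plus strand): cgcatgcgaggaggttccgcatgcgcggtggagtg
EIF3B (chr7:2354807-2354841, plus strand): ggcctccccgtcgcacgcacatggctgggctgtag
EIF2B3 (chr1:44986581-44986615, minus strand): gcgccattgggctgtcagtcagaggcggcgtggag
EIF6 (chr20:35284703-35284737, minus strand): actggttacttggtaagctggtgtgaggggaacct
EIF2B4 (chr2:27370324-27370358, minus strand): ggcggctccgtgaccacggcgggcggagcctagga

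The lines from EIF4E3 to EIF4EBP2 belong to genes with positive log2 fold changes, and those from EIF3K on to genes with negative ones. EIF4E3, EIF1 and EIF4EBP2 have no such run at the annotated start. In EIF4EBP2 one begins within 5 bases of it. In EIF1 only the tail of a run lies within those 5 bases, and the run itself begins further upstream. Promoter entries were found for 44 of the 52 members, 43 of them tested. EIF2S2, EIF3A, EIF3CL, EIF3E, EIF3G, EIF3H, EIF3L and EIF4EBP1 have no entry. A C followed by at least 4 pyrimidines stood at the annotated start, read on the gene's own strand, in 10 of the 43 (23.3%), against 5.41% of all tested genes with an entry, 10.6% of those averaging 50 FPKM or more and 4.04% of all 27305 promoters in the table. Of these 10 members, 3 rose and none fell, and 9 had positive log2 fold changes, with a median of 0.26. An unadjusted p under 0.05 was reached by 5 of the 10. Of all tested genes 21.9% reached it, and of those averaging 50 FPKM or more 39.2%. Of the other 33, 1 rose, 2 fell, and 21 had negative log2 fold changes, with a median of -0.17. The groups did not overlap in 5 of the 10, all higher in oeALKBH5, and in 15 of the 33, 3 higher and 12 lower. Of all 549 tested genes with the run, 314 had positive log2 fold changes, and without overlap 100 were higher and 53 lower. At 50 FPKM or more, 92 of 168 genes with the run were positive, and without overlap 40 were higher and 22 lower. Of the 1424 genes at that level without the run, 250 were higher and 382 lower without overlap.

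The exception among the 10 was EIF3K, at 312 ± 18.1 FPKM in oeALKBH5 and 329 ± 8.49 FPKM in NC libraries (SD, n = 3 each), and EIF3M and EIF2D were near 0. EIF2S3 and EIF2S3B are copies of each other and are not independent entries. Under the 3 other scalings 9 of the 10 stayed positive, with medians from 0.25 to 0.28, and leaving out 1 library gave 7 to 9 positive and medians from 0.17 to 0.29. Annotated starts can be off by some bases. A wider search took any C followed by at least 4 pyrimidines within 5 bases of the annotated start. This can be the tail of a run that begins further upstream, as in EIF1. The search at the annotated start did not check the base before it either. In the lines of EIF2S3, EIF3F, EIF3D and EIF2A, among others, pyrimidines also stand just before the capitals. By the wider search 17 members qualified, 4 of which, EIF1 included, rose and none fell, and 13 were positive with a median of 0.18. Such a stretch was found in 22.6% of all tested genes with an entry. At 50 FPKM or more, 6.21% of genes with it rose and 7.1% fell, against 6.05% and 9.2% of those without it, and the medians were -0.02 and -0.07. Over all tested genes with an entry, the 549 with a run at the annotated start itself had a median of 0.05, with 4.55% rising and 1.82% falling, and the 9604 others had a median of 0.01, with 2.95% rising and 2.37% falling. Among genes averaging 50 FPKM or more, 8.33% of 168 with the run at the start itself rose and 2.98% fell, against 5.83% and 9.27% of 1424 without it. Whether the start plays any part in these changes was not tested.

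**Figure D5:**
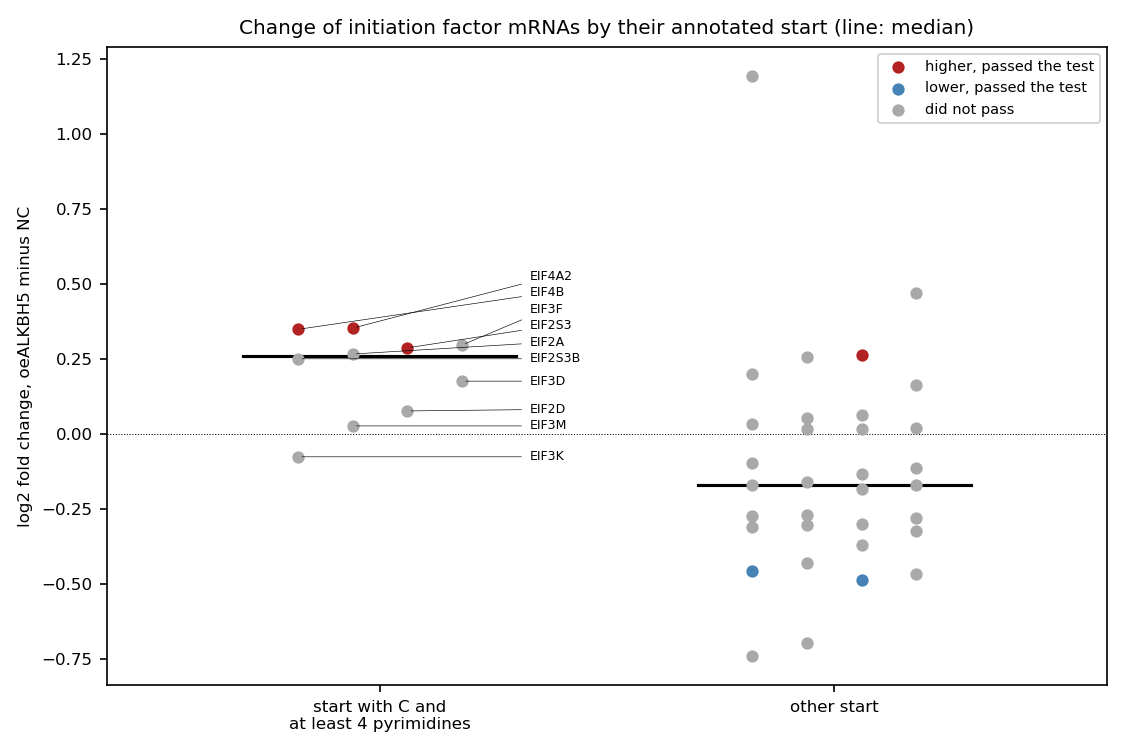
Log2 fold change (oeALKBH5 minus NC, y axis) of the 43 tested initiation factor genes with a promoter entry, split by whether the annotated start is a C with at least 4 pyrimidines after it. Points are genes, coloured by the test, and the line is the median, 0.26 for the 10 genes at the left and -0.17 for the 33 at the right.

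Genes that act beside the initiation factors were read from lists chosen with earlier results of these data known. Of all tested genes, 3.02% rose and 2.43% fell, and without overlap 15.1% were higher and 13% lower in oeALKBH5. Of 12 genes of elongation and termination, 2 rose and none fell (median log2 fold change -0.08). Without overlap, 4 of the 12 were higher and 4 lower in oeALKBH5. EEF2, the translocase, was at 3765, 4313 and 4445 FPKM in oeALKBH5 libraries, against 3263, 3227 and 3262 FPKM in NC libraries (log2 fold change 0.36, with an SE of 0.06 and a limma adjusted p of 0.0121), and EEF1A2, a tRNA-delivering factor, at 198, 186 and 186 FPKM in oeALKBH5 libraries, against 143, 135 and 140.1 FPKM in NC libraries (log2 fold change 0.44, with an SE of 0.07 and a limma adjusted p of 0.0106). With single libraries left out, both lost their call only without NC replicate 3 (adjusted p = 0.0604 and 0.0529). The main isoform EEF1A1 was at 3016 ± 261 FPKM in oeALKBH5 and 3258 ± 146 FPKM in NC libraries (SD, n = 3 each) and did not pass. ABCE1, which recycles ribosomes, was at 49.0, 36.4 and 44.5 FPKM in oeALKBH5 libraries, against 57.8, 80.4 and 65.0 FPKM in NC libraries, lower without overlap, with an adjusted p of 0.0526. Of 15 cofactors of initiation outside the EIF symbols, 5 were lower in oeALKBH5 without overlap and 1 was higher. By limma, 1 rose and none fell (median -0.08). It was PABPC1, the poly(A)-binding protein that contacts eIF4G, at 1334, 1249 and 1331 FPKM in oeALKBH5 libraries, against 1109, 1170.0 and 1095 FPKM in NC libraries (log2 fold change 0.21, with an SE of 0.05 and a limma adjusted p of 0.0452), and the call was lost whichever library was omitted (adjusted p from 0.0522 to 0.164).

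Kinases and stress genes around the factors included calls with larger log2 fold changes than any called initiation factor. Of 13 genes of mTOR and MNK control, 2 rose and none fell (median 0.08). MKNK2, a kinase that phosphorylates eIF4E, was at 227, 251 and 236 FPKM in oeALKBH5 libraries, against 91.9, 97.1 and 95.3 FPKM in NC libraries (log2 fold change 1.32, with an SE of 0.08 and a limma adjusted p of 4.18e-05). DDIT4, an inhibitor of mTOR induced by stress, was at 133, 151 and 143 FPKM in oeALKBH5 libraries, against 88.8, 75.8 and 88.8 FPKM in NC libraries (log2 fold change 0.75, with an SE of 0.10 and a limma adjusted p of 0.00431). MTOR itself was at 24.1 ± 0.918 FPKM in oeALKBH5 and 31.3 ± 3.31 FPKM in NC libraries (SD, n = 3 each) and did not pass. Of 10 genes around eIF2 phosphorylation, 2 rose and none fell (median 0.10). PPP1R15A, which targets a phosphatase to eIF2 alpha, was at 10.1, 12.7 and 13.0 FPKM in oeALKBH5 libraries, against 4.03, 1.5 and 2.01 FPKM in NC libraries (log2 fold change 1.94, with an SE of 0.29 and a limma adjusted p of 0.00874), and DDIT3, a stress transcription factor, was at 51.0, 53.6 and 69.8 FPKM in oeALKBH5 libraries, against 21.9, 31.5 and 21.9 FPKM in NC libraries (log2 fold change 1.19, with an SE of 0.18 and a limma adjusted p of 0.00877). These 4 calls held whichever library was omitted. The eIF2 alpha kinases were not called, among them EIF2AK3 at 27.5 ± 6.52 FPKM in oeALKBH5 and 18.6 ± 6.01 FPKM in NC libraries and EIF2AK2 at 18.6 ± 5.32 FPKM in oeALKBH5 and 25.6 ± 3.71 FPKM in NC libraries (SD, n = 3 each), and neither was ATF4, at 323 ± 27.5 FPKM in oeALKBH5 and 295 ± 8.14 FPKM in NC libraries (SD, n = 3 each). The enzymes that make hypusine on eIF5A, DHPS and DOHH, were not called by limma, and DHPS had an unadjusted p under 0.05 (60.2 ± 5.65 FPKM in oeALKBH5 and 48.7 ± 5.70 FPKM in NC libraries, SD, n = 3 each).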

How the data were processed

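Input RNA of 3 oeALKBH5 and 3 NC libraries of C4-2 cells was analysed. Libraries were made after depletion of ribosomal RNA and are directional and paired-end, per the labels' protocols. Cuffdiff, Cufflinks, HISAT2 2.0.4, cutadapt 1.9.3 and hg19 appear in the submitters' processing notes, with no roles. The deposited values are FPKM per gene and library, a unit that the table does not name and that follows from those tools and the values. Read counts were not used here, so depth is unknown and no counting interval is given.

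Symbols were found for 19434 of 20308 genes, and RefSeq gave which are protein-coding. Values of genes averaging 0.5 FPKM or more were taken as log2(FPKM + 1). The test was limma 3.58.1 (R 4.3.3) with an intensity trend and Benjamini-Hochberg adjustment over 12757 genes (threshold 0.05). This scale understates the change of low genes. Ratios had exact two-sided permutation tests. Steps were tested on simulated data. Other tools were scipy 1.17.1, matplotlib 3.10.9, numpy 2.4.6 and pandas 2.3.3 under Python 3.11.15.

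The members and lists were chosen with earlier results of these data known. Every member may be named, and genes of the other lists if called or among the 4 smallest p of their list. The alternatives were another pseudocount, filters, scalings, no trend, a replicate block, summed copies and leaving out each library.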

Additional observations from a re-analysis of the deposited data

How the results depend on the processing

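The 7 calls among initiation factors rested on a small margin, and the direction of all 7 held in every alternative fitted. Without a filter on low values limma called 421 genes, 2 of them members. Without the intensity trend it called 270 genes and no member, with 14 members at an unadjusted p under 0.05. With the replicate block it called 344 genes and no member, with 17 members at an unadjusted p under 0.05. Over the fits that left out 1 library it called 232 to 436 genes and 1 to 4 members (the 4 include EIF4E1B, which is listed at 0 in NC libraries), and the members' median log2 fold change ran from -0.095 to -0.039. The fits with a pseudocount of 0.1 FPKM, a minimum of 5 FPKM, other scalings or summed copies called 5 to 7 members. The replicate numbers did not pair the libraries: deviations from the group means correlated at -0.017, -0.021 and 0.032 between same-numbered libraries over 12757 genes, and only the third number correlated best with its own.

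Signs of uncalled members turned. EIF3C was at -0.11 under quantile normalization and -1.03 with summed copies, where it had 0.01. Under quantile normalization EIF3G was at 0.0044, EIF4EBP3 at -0.011 and the EIF4G3/EIF4G1 ratio at -0.042, and that ratio was at -0.0020 with a pseudocount of 0.1 FPKM. Leaving out 1 library gave ranges from -0.059 to 0.19 for EIF1AD, -0.051 to 0.17 for EIF1AX, -0.31 to 0.048 for EIF1B, -0.13 to 0.40 for EIF2D, -0.040 to 0.16 for EIF2B2, -0.74 to 1.03 for EIF3C, -0.095 to 0.021 for EIF3G and -0.045 to 0.087 for EIF3M. They were -0.33 to 0.38 for EIF4EBP3, -0.15 to 0.64 for EIF4ENIF1, -0.0043 to 0.047 for EIF5, -0.046 to 0.066 for EIF4G2/EIF4G1, -0.14 to 0.14 for EIF4G3/EIF4G1 and -0.25 to 0.45 for EIF4E2/EIF4E. The causes were not tested.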
